A study of Mus musculus with 14 samples.

Results

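The members are 9 of the 36047 genes in the tables, all of which belong to families of an ancestral gene and near-identical copies. They were followed in mouse embryoid bodies, clumps of differentiating embryonic stem cells. Of these, 6 were parent genes, Kpna2, Ahcy, Eno1, Ftl1, Hspa8 and Hmga1, and 3 were copies, Eno1b of Eno1 and Rps3a2 and Rps3a3 of the ribosomal protein gene Rps3a1. The 9 were chosen because their counts shifted between gene and copy in the knockout libraries of days 3 and 5. Their knockout-against-control differences on those days are therefore given as a description, with no test.

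The labels and protocols name a pair of stem cell lines. The control was iHA-Foxk1, whose titles add the letters ND on days 3 and 5. The other was Foxk1 KO, a knockout of the forkhead transcription factor gene Foxk1. Both were kept on irradiated mouse embryonic fibroblasts, which were removed by a plating step before differentiation in mesodermal medium, and embryoid bodies were collected at days 3, 5 and 10. At day 10 a further group of Foxk1 KO embryoid bodies received IWR1, a compound that lowers canonical Wnt signalling by stabilising Axin. The control is named Control at day 10, which the protocols give as iHA-Foxk1. Each of the 7 groups had 2 libraries. With 1 line of each kind named, an effect of Foxk1 and any other difference of these lines cannot be told apart. Nothing in the labels says that the libraries of a group were separate cultures, so p-values measure the spread between libraries, which may be technical.

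A retrocopy arises when a messenger RNA is reverse transcribed and inserted elsewhere in the genome. Such a copy has no introns and usually no promoter of its own, and most copies are annotated as processed pseudogenes. The parent genes here are housekeeping genes with abundant messenger RNA, the kind that has often been copied in mammalian genomes. Kpna2 is an importin alpha that carries proteins with a nuclear localisation signal into the nucleus, Ahcy is the hydrolase that clears S-adenosylhomocysteine in the methionine cycle, and Eno1 is a glycolytic enolase. Ftl1 is the ferritin light chain of the iron store, Hspa8 is the constitutive HSP70 chaperone, Hmga1 is a chromatin protein that binds AT-rich DNA, and Rps3a1 is a protein of the small ribosomal subunit.

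Each parent was grouped with the copies whose transcript matched one of its own transcripts with an identity of at least 95% across 80% or more of its length. The 7 families held 26 copies beside the 7 parents. In most families 1 copy held nearly all of the counts given to copies. These main copies were Gm10184 on chromosome 17 for Kpna2, Gm4737 on chromosome 16 for Ahcy, Eno1b for Eno1, Gm15459 on chromosome 5 for Hspa8 and Hmga1b on chromosome 11 for Hmga1. The Ftl1 family had Ftl1-ps1 on chromosome 13, Ftl2-ps on chromosome 4 and Ftl1-ps2 on chromosome 10, and the Rps3a1 family had Rps3a2 on chromosome 14 and Rps3a3 on chromosome 13. The annotation used (GENCODE vM21, mm10) types Gm10184, Gm4737, Eno1b, Ftl1-ps1 and Hmga1b as protein coding and Gm15459, Ftl2-ps, Ftl1-ps2, Rps3a2 and Rps3a3 as processed pseudogenes. Ftl2-ps lies in an intron of the glutamate receptor gene Grik3 and Rps3a3 in an intron of the phosphodiesterase gene Pde4d, both on the strand of the host gene.

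The stretches below are shown because they hold the few coding bases by which a main copy can be told from its parent. Bases are from the reference transcripts of mm10, 5′ to 3′ on the strand of the gene, capitals mark bases that differ within the set, and positions of substitutions count from 1 at the A of the parent's start codon. Gm10184 differed from Kpna2 by 2 substitutions over 1590 coding bases, A696G and C741T, and both were also found in Gm10259, another Kpna2 copy. The stretches lie at chr11:106991248-106991313, minus strand, for Kpna2, chr17:89909566-89909631, minus strand, for Gm10184, and chr3:25211855-25211920, minus strand, for Gm10259.
Kpna2: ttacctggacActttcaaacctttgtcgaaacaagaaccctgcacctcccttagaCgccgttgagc
Gm10184: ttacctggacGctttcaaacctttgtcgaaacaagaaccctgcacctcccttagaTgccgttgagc
Gm10259: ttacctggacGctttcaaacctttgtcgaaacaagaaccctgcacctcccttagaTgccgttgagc

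Gm4737 differed from Ahcy by 4 substitutions over 1299 coding bases, C459T, G474A, C1050T and C1068T, and the last pair was shared with the copy Gm9826. The first stretch of Ahcy lies at chr2:155064886-155064925, minus strand, and of Gm4737 at chr16:46154527-46154566, minus strand.
Ahcy: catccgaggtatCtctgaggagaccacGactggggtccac
Gm4737: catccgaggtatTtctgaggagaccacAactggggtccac
The second stretch lies at chr2:155062236-155062278, minus strand, in Ahcy and at chr16:46153933-46153975, minus strand, in Gm4737.
Ahcy: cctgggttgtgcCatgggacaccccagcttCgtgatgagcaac
Gm4737: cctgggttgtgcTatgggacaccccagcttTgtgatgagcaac

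Ftl1-ps1 differed from Ftl1 by 2 substitutions over 552 coding bases, G468A and G504A, and all 4 Ftl1 copies compared carried both. The stretch lies at chr7:45458146-45458200, minus strand, in Ftl1, chr13:74407062-74407116, plus strand, in Ftl1-ps1, chr4:125504746-125504800, plus strand, in Ftl2-ps and chr10:130592193-130592247, minus strand, in Ftl1-ps2. Ftl1-ps2 also had C482T.
Ftl1: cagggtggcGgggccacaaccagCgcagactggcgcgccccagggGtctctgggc
Ftl1-ps1: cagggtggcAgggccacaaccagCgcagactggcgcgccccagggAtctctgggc
Ftl2-ps: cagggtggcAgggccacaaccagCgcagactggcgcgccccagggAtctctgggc
Ftl1-ps2: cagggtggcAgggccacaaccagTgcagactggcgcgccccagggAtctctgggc

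Gm15459 differed from Hspa8 by 5 substitutions over 1941 coding bases, of which C414T and C549T were in all 4 Hspa8 copies compared. The stretch around C549T lies at chr9:40802861-40802891, plus strand, in Hspa8 and at chr5:5782992-5783022, minus strand, in Gm15459.
Hspa8: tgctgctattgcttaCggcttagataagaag
Gm15459: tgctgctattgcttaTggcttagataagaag

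Rps3a2 differed from Rps3a1 by 4 substitutions and Rps3a3 by 9. T216C and T534C were in all 4 Rps3a1 copies compared. The stretch around T216C lies at chr3:86141362-86141392, minus strand, in Rps3a1, chr14:88123578-88123608, minus strand, in Rps3a2 and chr13:108670803-108670833, plus strand, in Rps3a3.
Rps3a1: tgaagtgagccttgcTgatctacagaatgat
Rps3a2: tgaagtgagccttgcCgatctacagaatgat
Rps3a3: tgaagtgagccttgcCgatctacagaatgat
The stretch around T534C lies at chr3:86139054-86139084, minus strand, in Rps3a1, chr14:88123260-88123290, minus strand, in Rps3a2 and chr13:108671121-108671151, plus strand, in Rps3a3.
Rps3a1: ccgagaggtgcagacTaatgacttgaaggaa
Rps3a2: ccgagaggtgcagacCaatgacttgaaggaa
Rps3a3: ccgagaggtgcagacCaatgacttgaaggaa

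Eno1b differed from Eno1 by 8 substitutions over 1305 coding bases, and 4 of them were in all 3 Eno1 copies compared. Hmga1b matched an Hmga1 transcript with 3 mismatches over 1602 aligned bases, an identity of 99.81%.

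kallisto, which made the counts, assigns a read by the 31-base words it shares with transcripts, 31 being that tool's default length. Of the 31-base words in the transcripts of Gm10184, 1.02% occurred in no transcript of any other of the 36047 genes counted. Annotated genes outside these were not searched. The value was 3.14% for Gm15459, 4.41% for Gm4737, 7.09% for Rps3a2, 7.33% for Hmga1b, 7.85% for Ftl2-ps, 11% for Eno1b, 21.6% for Rps3a3 and 28.9% for Ftl1-ps1. Each parent had a larger part of words of its own than these copies of it, from 23.1% in Rps3a1 and 28.6% in Ahcy to 59.7% in Hspa8 and 71.5% in Eno1. Words were pooled over all annotated transcripts of a gene, 5438 words in Eno1 against 1845 in Eno1b and 4549 in Hspa8 against 1911 in Gm15459. A parent's part can therefore include words of transcripts other than the one that matched the copy. The words of Gm10184 were thus nearly all shared, 95.8% of them with Kpna2 itself. How reads of shared words were divided was settled in the authors' processing, and the reads were not used here.

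Depth was 10574194 to 11621032 estimated counts per library at days 3 and 5 and 34466708 to 52747273 at day 10. Libraries of a group differed by more than counting noise in every group, and no pair looked like 1 library deposited in duplicate. Foxk1 itself, given in CPM, estimated counts scaled to a common library size, read 86.3 and 76.4 CPM in day 3 control, 16.2 and 16.5 in day 3 KO, and 134 and 133 against 38.2 and 33.6 at day 5. At day 10 it read 65 and 80.1 CPM in control, 71.3 and 41.8 in the libraries labelled Foxk1 KO, and 26.4 and 52.9 in those labelled Foxk1 KO with IWR1. At day 10 the gene overlapped between control and the libraries labelled KO without IWR1, and did not overlap between control and those with IWR1. The summed level of 4 Y-linked genes was 161 and 164 CPM in day 3 KO and 149 and 159.8 in day 5 KO, and 13.3 to 25.6 CPM in the other 10 libraries. The summed level of 6 early mesoderm markers (T, Mixl1, Eomes, Mesp1, Kdr, Pdgfra) was 2111 and 2189 CPM in day 3 control and 213 and 258 in day 3 KO, and that of 4 cardiomyocyte markers 3348 and 3198 CPM in day 10 control, 56.2 and 130.0 in the day 10 libraries labelled KO and 227 and 229 with IWR1. These are bulk samples, in which fewer cells of a type and less RNA per cell cannot be told apart.

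In the KO libraries of days 3 and 5, the counts of every family sat on the parent gene. In the control libraries of all days and in every day 10 library, a large part sat on the copies. The median over the 7 families of the copies' share of family counts was 75.4% and 76.7% in day 3 control, 0.55% and 0.449% in day 3 KO, 76.5% and 77.5% in day 5 control and 4.85% and 3.68% in day 5 KO. The day 10 medians were 79.4% and 80% for control libraries, 77.1% and 78.6% for those labelled KO and 77.3% and 79.3% for IWR1. The shares are of estimated counts and are not corrected for transcript length. The low shares in KO at days 3 and 5 follow from how the genes were chosen. Those of day 10, in libraries labelled with the same genotype, did not enter the choice. The Y-linked level followed the same division of the 14 libraries as the shares, and its part in the result was not tested. Whether the day 10 libraries labelled KO came from the same line as those of days 3 and 5 was not tested.

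**Figure D1:**
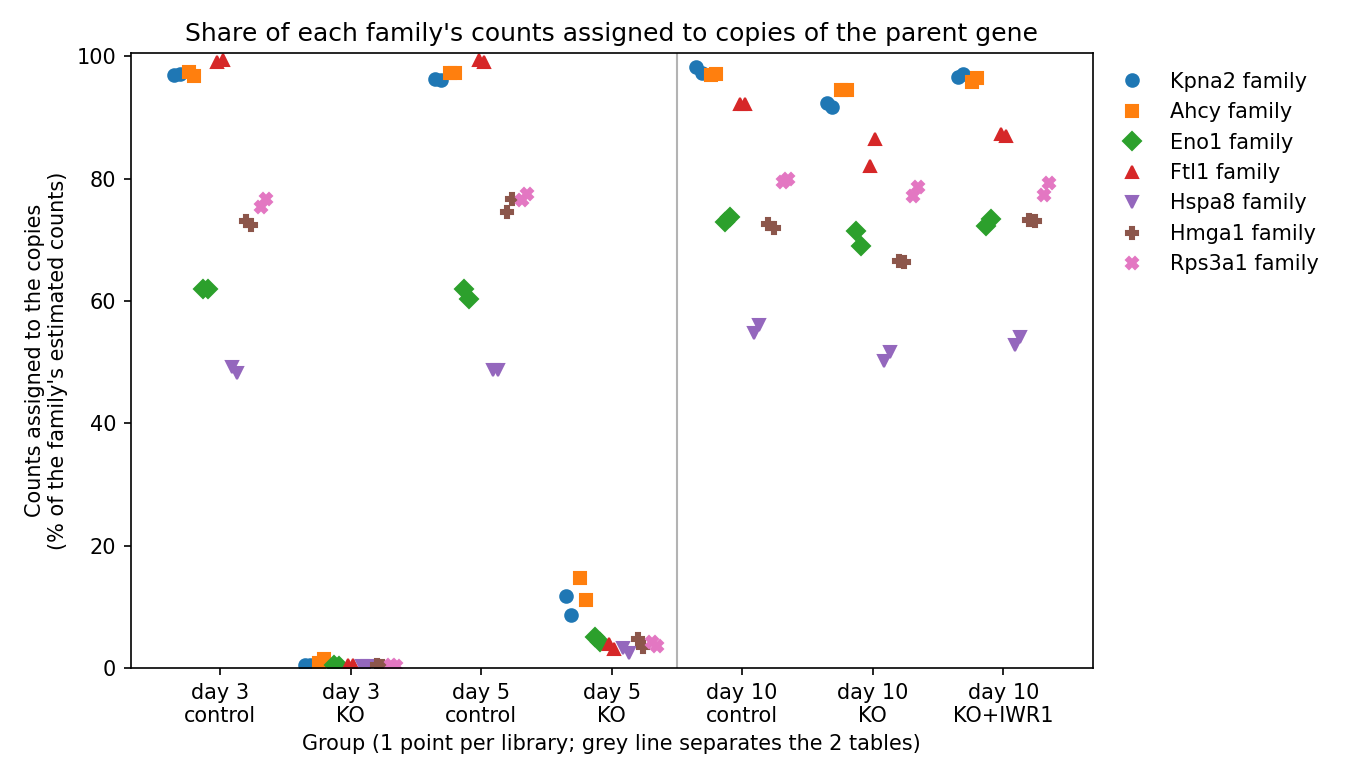
Share of each family's estimated counts assigned to copies of the parent gene (y axis, percent), by group (x axis), with 1 point per library and 1 colour and symbol per family. The 4 KO libraries of days 3 and 5 lie between 0.294% and 14.7%, and the other 10 between 48.3% and 99.4%.

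The families kept their own levels. The Hspa8 family had the lowest share of copies in all 14 libraries, 49.2% and 48.3% in day 3 control and 54.8% and 56.1% in day 10 control. The Kpna2, Ahcy and Ftl1 families had the highest shares, from 92.1% to 99.4% in the control libraries. The Eno1, Hmga1 and Rps3a1 families lay between these groups, from 60.4% to 80% in the control libraries. Eno1 and Hspa8, the parents with the largest parts of words of their own (71.5% and 59.7%), were the 2 with the lowest shares of copies in the control libraries of days 3 and 5. In day 10 control the Hmga1 family, at 72.6% and 71.9%, lay below the Eno1 family, at 72.9% and 73.7%. A link between a parent's own words, pooled over its annotated transcripts, and the share of copies was not tested.

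Among the parents, Kpna2 read 11.5 and 11.2 CPM in day 3 control and 427 and 426 in day 3 KO. Its copy Gm10184 read 359.8 and 377 CPM against 2.39 and 2.54. At day 5 Kpna2 read 11.4 and 12.2 CPM against 279 and 286, and Gm10184 295 and 299 against 37.3 and 27.5. Parent and copy moved in opposite directions with no overlap of the groups, and the family sum was 371 and 388 CPM in control against 429 in each KO library at day 3 and 306 and 311 against 316 and 314 at day 5. The ratio of the KO to the control mean was 37.5 for Kpna2 and 1.13 for the sum at day 3, and 23.9 and 1.02 at day 5.

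Ahcy read 18.6 and 23.3 CPM in day 3 control and 652 in each KO library, and at day 5 9.61 and 10.2 CPM against 342 and 349.8. Its copy Gm4737 read 699 and 691 CPM in control against 5.31 and 9.97 at day 3, and 337 and 350.0 against 58.7 and 43.6 at day 5. The sum of the Ahcy family was lower in KO at day 3, at 657 and 662 CPM against 718 and 715, and higher at day 5, at 401 and 394 against 347 and 360.3. The parent alone thus read 31.1 times higher in KO at day 3 while the family sum stood at 0.921 of the control.

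Eno1, unlike the parents above, also read high in control. It read 1333 and 1325 CPM in day 3 control and 3783 and 3824 in KO, and at day 5 531 and 589.8 against 2141 and 2079. Eno1b read 2172 and 2153 CPM against 16.2 and 14.1 at day 3 and 861 and 900.2 against 116 and 90.2 at day 5. The sum of the family changed little at day 3, from 3506 and 3478 to 3802 and 3842 CPM, and stood at 1.54 times the control at day 5, with 2258 and 2172 CPM in KO against 1394 and 1490.0. The copy Gm4735 went the other way from Eno1b at day 3, with 0.704 and 0.792 CPM in control and 2.48 and 3.13 in KO.

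Ftl1 showed the widest gap between lines of all 9 genes. It read 18.6 and 14.2 CPM in day 3 control and 4079 and 4132 in KO, and 9.71 and 14.9 against 2864 and 2659 at day 5. Its 3 main copies all read lower in KO. Ftl1-ps1 read 1732 and 1625 CPM in day 3 control and 19.9 and 20.5 in KO, Ftl2-ps 399.9 and 395 against 3.01 and 2.79, and Ftl1-ps2 21.7 and 19.7 against 0.177 and 0.169. The family sum was higher in KO on both days, at 4103 and 4155 against 2173 and 2055 CPM at day 3 and at 2982 and 2746 against 1705 and 1665 at day 5. Of the 7 families this was the largest ratio of sums on each day, 1.95 and 1.7, beside a ratio of 251 and 224 for the parent alone.

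Hspa8 had the smallest difference between lines of the parents. It read 2277 and 2360.0 CPM in day 3 control and 4887 and 4989 in KO, and 1662 and 1689 against 3742 and 3735 at day 5. Gm15459 read 2207 and 2202 CPM against 17.2 and 14.4 at day 3 and 1579 and 1609 against 128 and 92.6 at day 5. With the copies added, the KO sum was 1.1 times the control at day 3 and 1.18 times at day 5, where Hspa8 alone read 2.13 and 2.23 times.

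Hmga1 read 415 and 414 CPM in day 3 control and 1883 and 1906 in KO, and 247 and 225 against 906 and 954 at day 5. Hmga1b read 1119 and 1084 CPM against 9.99 and 8.2 at day 3 and 727 and 737 against 46.2 and 33.8 at day 5. The family sum was 1.26 times the control in KO at day 3, with no overlap, and overlapped between lines at day 5, where it read 975 and 962 CPM in control and 952 and 988 in KO. The lines were thus apart by a ratio of 3.94 in Hmga1 and not separated in the sum at day 5.

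The Rps3a copies were the mirror image of the parents. Rps3a2 read 791 and 820.4 CPM in day 3 control and 6.54 and 3.13 in KO, and 754 and 765 against 45.5 and 40.1 at day 5. Rps3a3 read 117 and 104 CPM against 0.619 and 0.423 at day 3 and 107 and 119 against 5.87 and 3.84 at day 5. Rps3a1, their parent, read 297 and 282 CPM in day 3 control and 1312 and 1333 in KO. The sum of this family was among the steadiest, at 1.1 times the control at day 3 and 1.07 times at day 5.

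**Figure D2:**
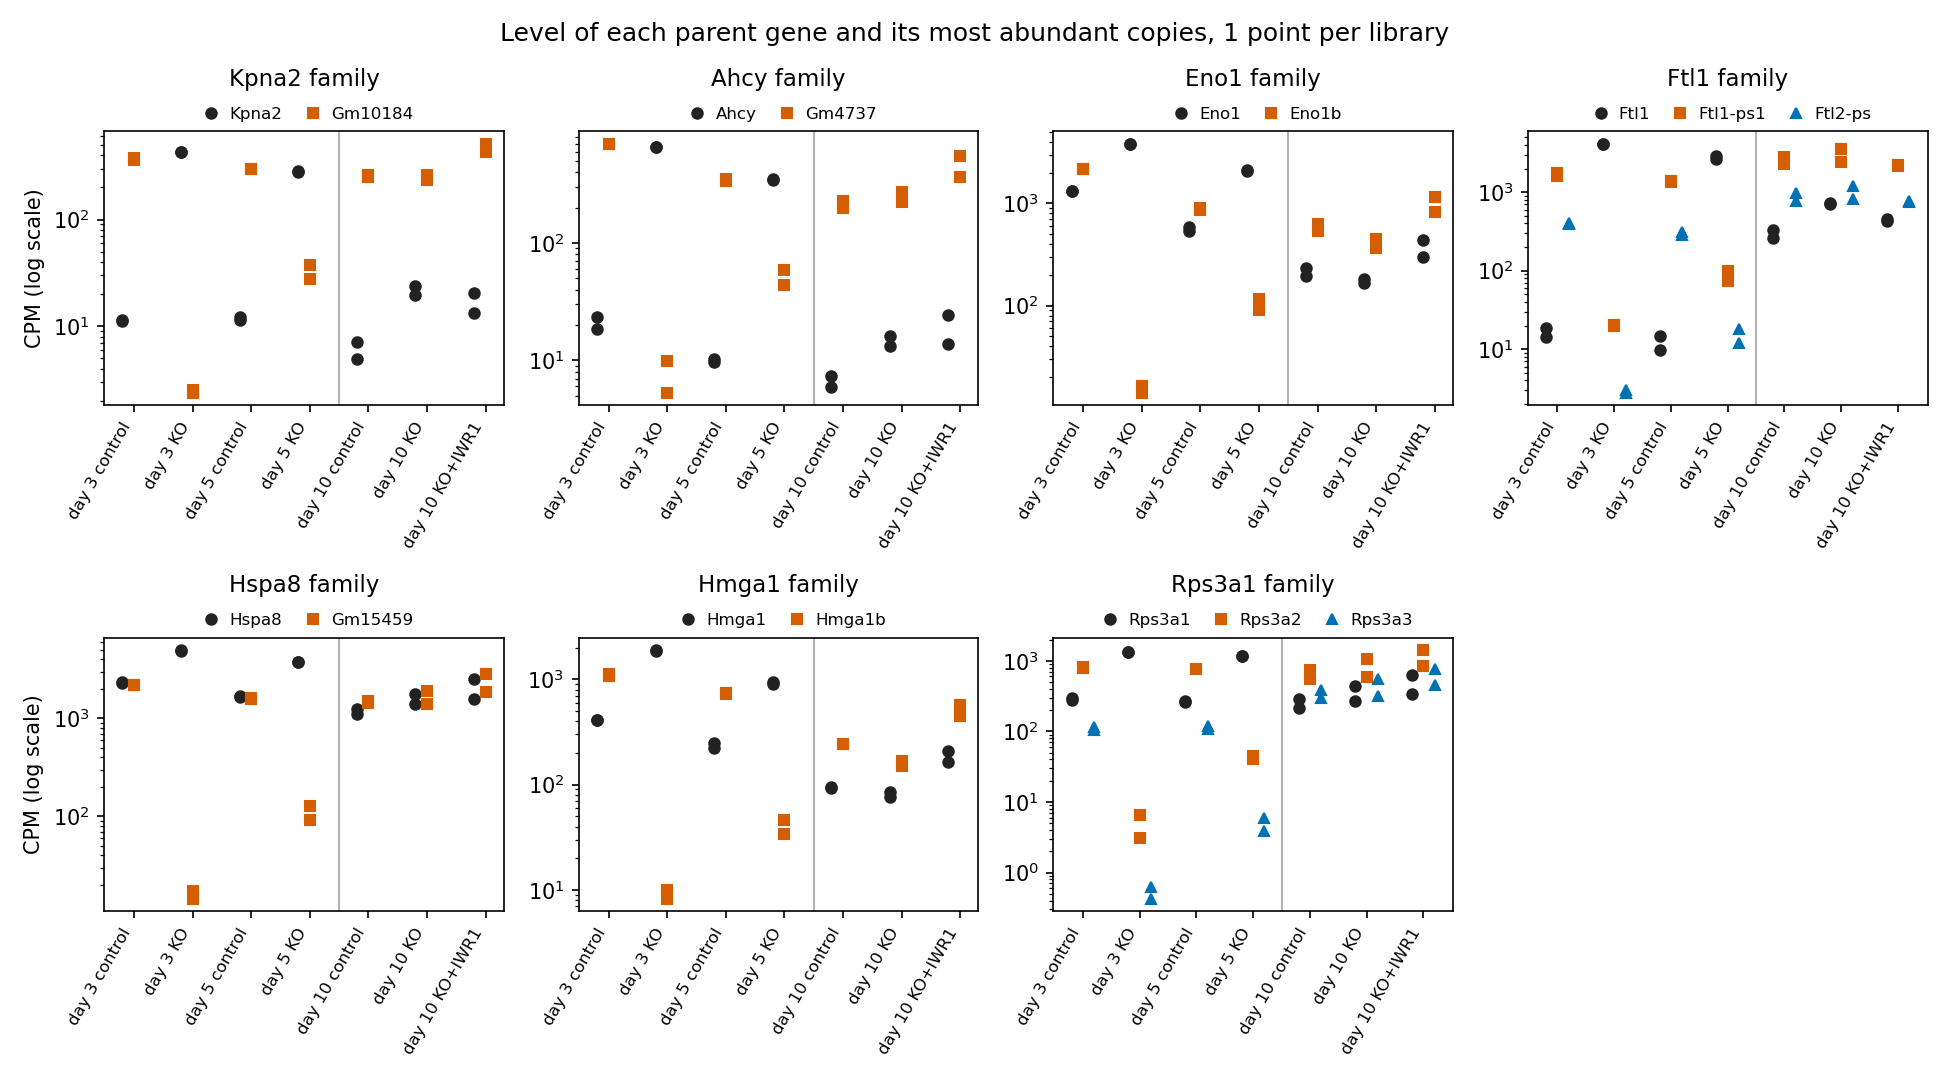
Level of each parent gene (black circles) and its most abundant copies (coloured) in CPM on a log axis, by group, with 1 point per library and a grey line between the separately normalized tables. At day 3 Kpna2 goes from 11.5 and 11.2 CPM in control to 427 and 426 in KO while Gm10184 goes from 359.8 and 377 to 2.39 and 2.54, and the other panels show a fall of the copies and a rise of the parent.

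Over the 9 genes, the 6 parents read higher and the 3 copies lower in KO than in control on both days, with no overlap between the groups. Of all 14430 genes tested in that table, 36.7% lay above and 37.8% below control without overlap at day 3, and 35.4% and 35.2% at day 5. By edgeR's quasi-likelihood test 32.9% of all genes passed an adjusted p of 0.05 at day 3, 16% higher and 16.9% lower, and 43.5% at day 5, 21.9% higher and 21.7% lower. Since the genes were chosen on these differences, nothing is read from their count. The family sums lay between 0.921 and 1.95 times the control at day 3 and between 1 and 1.7 times at day 5, and those of parents alone between 2.13 and 251 times at day 3.

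**Figure D3:**
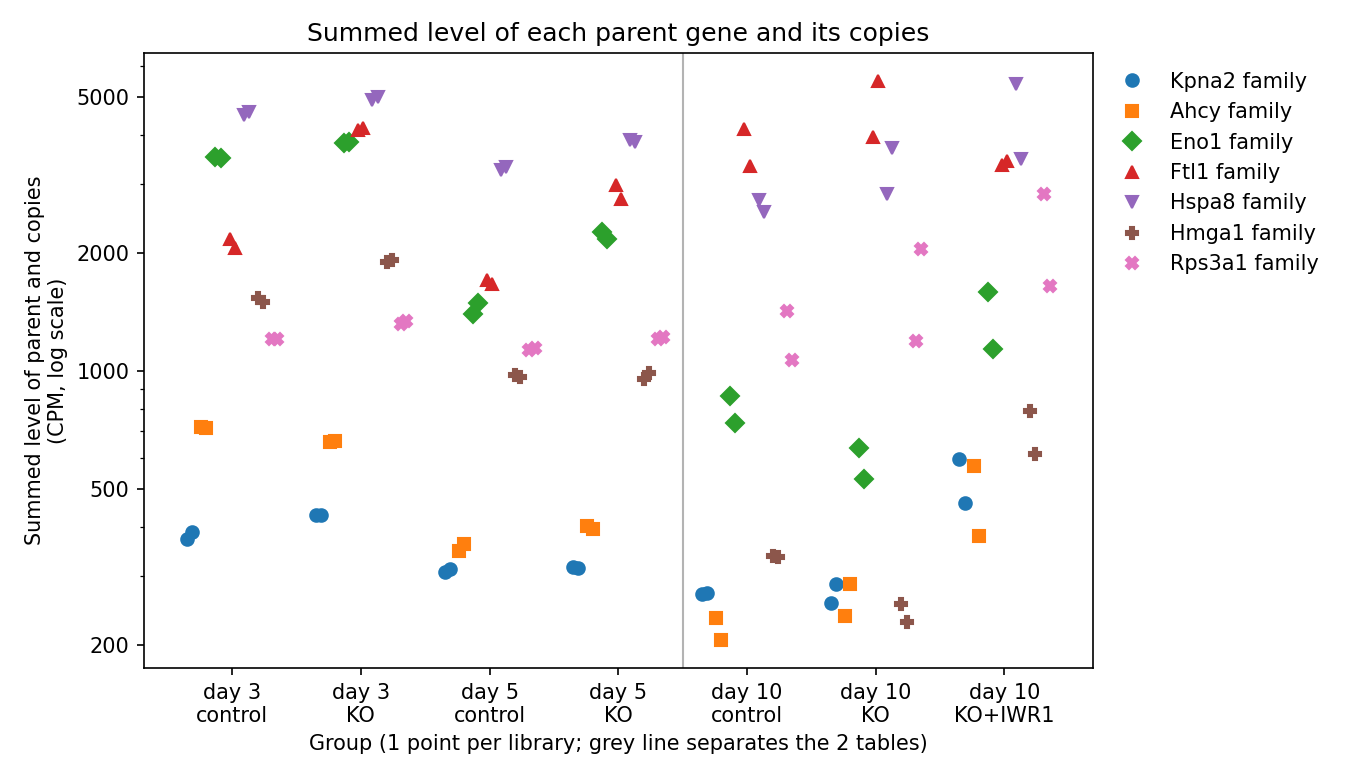
Summed level of each parent and its copies (CPM, log axis) by group, with 1 point per library. At days 3 and 5 most families sit at nearly the same level in control and KO, and Ftl1 is the family farthest apart, at 2173 and 2055 CPM against 4103 and 4155 at day 3.

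The main copies did not stay at their day 3 level in KO. In KO, from day 3 to day 5, all 3 member copies rose, Eno1b by 2.77 ± 0.14 on the log2 scale (SE; edgeR adjusted p = 1.22e-05), Rps3a2 by 3.15 ± 0.25 (adjusted p = 1.96e-04) and Rps3a3 by 3.19 ± 0.35 (adjusted p = 7.69e-05), each higher in both day 5 libraries than in both of day 3, as were 39.8% of all genes, with 37.4% lower. All 6 member parents fell, with log2 changes from -1.03 ± 0.05 in Hmga1 to -0.40 ± 0.03 in Hspa8. So all 9 genes passed the test in KO, where 53.8% of all genes did, 28.3% higher and 25.5% lower. Ftl1 was the least firm of these calls, at -0.57 ± 0.16 (adjusted p = 0.0301). It was lost without either day 3 KO library, with adjusted p of 0.101 and 0.109, and with no filter on low counts, at 0.0666. These libraries also served to choose the genes, although the contrast between days did not. The member copies were chosen as low in KO, with day 3 means from 0.521 to 15.1 CPM, so their p-values are not independent of the choice.

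The copies also rose as a share of their families, although their rise in level did not make up for the fall of the parents. In KO Ftl1 went from a mean of 4105 to 2761 CPM between the days and Ftl1-ps1 from 20.2 to 86.3. In KO the copies' share of the Kpna2 family went from 0.556% and 0.591% at day 3 to 11.8% and 8.77% at day 5, and that of the Ahcy family from 0.807% and 1.58% to 14.7% and 11.1%. The other 5 families went from 0.294% to 0.58% at day 3 to 2.43% to 5.18% at day 5. The day 5 libraries lay above those of day 3 in all 7 families, where 39.8% of all genes lay above without overlap by level. KO library 1 lay above library 2 at day 5 in every family. The families share these libraries, which also served to choose the genes, and are not separate tests. Beside this, the summed level of 7 fibroblast genes (Col1a1, Col1a2, Col3a1, Thy1, Postn, Lum and Dcn, chosen as markers of feeder cells that mesoderm also expresses) was 26.1 and 31.9 CPM in day 3 KO and 378 and 106 CPM in day 5 KO libraries 1 and 2. Of these genes Thy1 went the other way, from 15.3 and 19.4 CPM to 2.35 and 3.14. The Y-linked sum was 161 and 164 CPM at day 3 and 149 and 159.8 at day 5. The part of either in the rise of the copies was not tested.

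In control, from day 3 to day 5, the Ahcy, Eno1, Hspa8 and Hmga1 parents and their main copies fell, while in the Kpna2 family the copy Gm10184 fell (adjusted p = 0.0281) and the parent did not pass. By separation of the libraries, 41.7% of all genes lay higher and 42.1% lower at day 5. The control libraries also served to choose the genes, although the contrast between days did not. Of the 9 genes 5 fell, Ahcy by 1.08 ± 0.11 on the log2 scale, Eno1 by 1.25 ± 0.05, Eno1b by 1.30 ± 0.11, Hspa8 by 0.47 ± 0.03 and Hmga1 by 0.81 ± 0.05, with adjusted p from 1.31e-07 to 9.58e-05 by edgeR, and none rose. Across all genes 60.8% passed, 30.6% higher and 30.2% lower. The 5 of 9 genes are near the share passing in either direction and above the share passing lower, a difference that was not tested. Kpna2 (0.06 ± 0.08), Ftl1 (-0.41 ± 0.23), Rps3a2 (-0.08 ± 0.16) and Rps3a3 (0.03 ± 0.11) did not pass, with adjusted p from 0.179 to 0.833. Ftl1 passed without the second day 5 control library, at -0.76 and an adjusted p of 0.0196.

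The family sums fell in both lines between the days. Here too the libraries had served to choose the genes, although the contrast between days had not. In control all 7 passed the test, from the Rps3a1 sum, which fell by 0.09 ± 0.03 on the log2 scale (adjusted p = 0.0326), to the Eno1 sum, which fell by 1.28 ± 0.04 (adjusted p = 2.83e-08). In KO all 7 passed as well, from 0.13 ± 0.03 lower in Rps3a1, a log2 change of -0.13 (adjusted p = 0.00698), to -0.97 ± 0.03 in Hmga1 (adjusted p = 1.12e-07). Of all rows 60.9% passed in control, 30.4% lower, and 53.8% in KO, 28.2% higher and 25.6% lower. The Rps3a1 call in control was lost without any 1 of its 4 libraries, with adjusted p from 0.08 to 0.14, with no filter (0.122) and by DESeq2 (0.0955), and the Rps3a1 call in KO without the second day 3 KO library, at 0.0671.

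At day 10, in libraries that the choice of genes did not use, the copies' share was high in all 3 groups. It was nonetheless lower in the libraries labelled KO than in control in 7 of 7 families with no overlap. In the Kpna2 family it was 98.2% and 97.3% in control against 92.3% and 91.6%, in the Ahcy family 96.9% and 97.1% against 94.4% in each library, and in the Ftl1 family 92.1% in each control library against 82% and 86.5%. In the Hmga1 family it was 72.6% and 71.9% against 66.6% and 66.4%, in the Eno1 family 72.9% and 73.7% against 71.4% and 68.9%, in the Hspa8 family 54.8% and 56.1% against 50.2% and 51.7% and in the Rps3a1 family 79.4% and 80% against 77.1% and 78.6%. Among the levels of single genes, 25.3% of 17022 lay below control without overlap and 25.7% above. The families share their libraries and are not separate tests of the difference. The Y-linked sum was 14.8 and 16.3 CPM in control, 19.9 and 25.6 in the libraries labelled KO and 15.8 and 14.4 with IWR1, and its part in the shares was not tested.

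**Figure D4:**
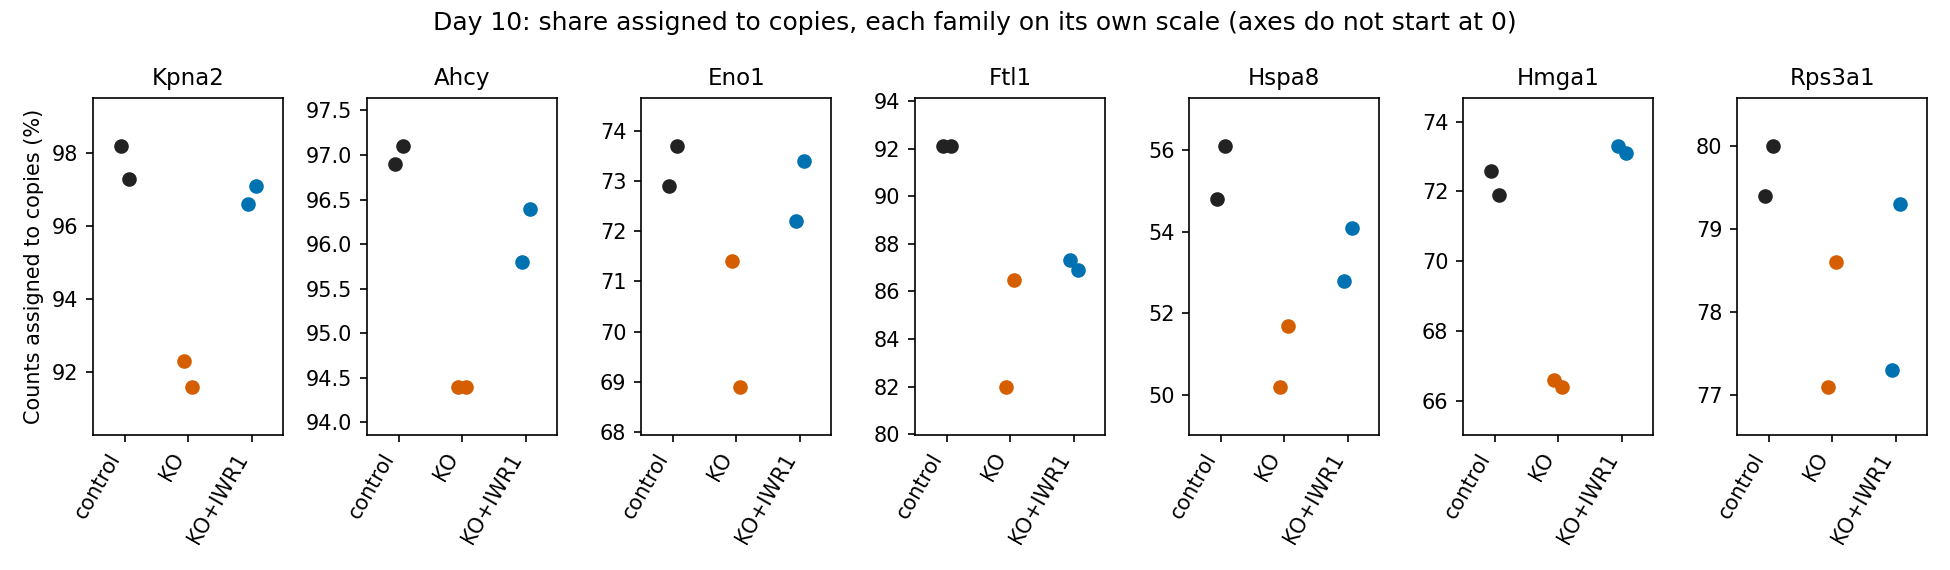
Day 10 share of family counts assigned to copies (y axis, percent, a separate scale per family that does not start at 0) in control, KO and KO with IWR1, with 1 point per library. In every panel both KO points lie below both control points, and in 6 of 7 both IWR1 points lie above both KO points, the exception being Rps3a1.

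By level, 2 of the 9 genes rose in the day 10 libraries labelled KO. Kpna2 read 4.97 and 7.2 CPM in control and 19.6 and 23.8 in KO, a log2 difference of 1.84 ± 0.31 (SE; edgeR adjusted p = 0.0285). Ftl1 read 326 and 262 CPM against 712 and 738, a difference of 1.30 ± 0.22 (adjusted p = 0.0271). Of all genes 5.27% passed, 1.92% higher and 3.35% lower. Both libraries of a line lay on 1 side in each gene, but the calls were lost with some libraries left out. Such a fit leaves 1 library in that group. The Kpna2 call was lost without control library 1, control library 2 or KO library 2. Its log2 difference was then 1.59 ± 0.43, 2.13 ± 0.44 and 1.69 ± 0.37. The Ftl1 call was lost without any 1 of the 4 libraries, at log2 differences from 1.16 ± 0.37 to 1.47 ± 0.37.

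The main copies of Kpna2 and Ftl1 gave no such difference. Gm10184 read 262 and 251 CPM in control and 232 and 261 in KO, a log2 difference of -0.06 ± 0.21 (adjusted p = 0.926). Ftl1-ps1 read 2815 and 2274 against 2409.8 and 3526 CPM (0.22 ± 0.30, adjusted p = 0.785), and Ftl2-ps 982 and 774 against 818 and 1202 (0.20 ± 0.28, adjusted p = 0.789). In each the groups overlapped. The Kpna2 family sum read 269 and 271 CPM in control and 256 and 285 in KO, and the Ftl1 sum 4138 and 3321 against 3953 and 5485, so that neither sum separated the groups.

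The other 7 genes did not pass at day 10. Ahcy read 7.37 and 5.93 CPM in control against 13.2 and 16.1 in KO, a log2 difference of 1.14 ± 0.33 (adjusted p = 0.109), and passed by DESeq2 (adjusted p = 0.0223). Hspa8 read 1234 and 1114 against 1408 and 1788 CPM (0.44 ± 0.32), Eno1 233 and 193 against 181 and 165 (-0.30 ± 0.25), Eno1b 627 and 541 against 451 and 364 (-0.52 ± 0.26) and Hmga1 92.4 and 94.1 against 84.9 and 76.8 (-0.21 ± 0.20), each with no overlap. Rps3a2 read 738 and 553 against 596 and 1053 CPM (0.35 ± 0.39) and Rps3a3 386 and 298 against 317 and 553 (0.35 ± 0.37), which overlapped, and both differences turned to -0.11 and -0.10 without KO library 2. For the 6 genes after Ahcy the adjusted p lay between 0.358 and 0.722.

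None of the 7 family sums passed at day 10 by edgeR, 0 of 7 also at an unadjusted p of 0.05 and 0 by DESeq2, where 5.26% of all rows of that fit passed, 1.91% higher and 3.36% lower. The log2 differences ran from -0.48 ± 0.22 in the Hmga1 sum (adjusted p = 0.308) and -0.46 ± 0.27 in the Eno1 sum (adjusted p = 0.444) to 0.38 ± 0.40 in the Rps3a1 sum (adjusted p = 0.707). In simulated libraries with the day 10 spread the test found 1.45% of 69 genes changed by a factor of 2. Of 62 genes changed by a factor of 4 it found 90.3%. Few genes were changed there and no sums were simulated, so the power for the sums was not measured. A sum that did not pass is not thereby shown to be unchanged.

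With IWR1, 3 of the 9 genes rose against the untreated KO libraries. Eno1 read 441 and 302 CPM with IWR1 against 181 and 165 (log2 difference 1.10 ± 0.25, edgeR adjusted p = 0.037), Eno1b 1145 and 832 against 451 and 364 (1.28 ± 0.27, adjusted p = 0.0303) and Hmga1 210.3 and 164 against 84.9 and 76.8 (1.21 ± 0.20, adjusted p = 0.0179). Of all genes 13.9% passed, 5.77% higher and 8.08% lower. Here parent and copy moved the same way, and the family sums of Eno1 (1.23 ± 0.28, adjusted p = 0.0356), Hmga1 (1.54 ± 0.23, adjusted p = 0.0142) and Kpna2 (0.96 ± 0.22, adjusted p = 0.0369) rose too, 3 of 7 beside 13.9% of all rows, 5.78% higher and 8.09% lower. The main copies Hmga1b, at 578 and 448 against 169 and 152 CPM (1.68 ± 0.22, adjusted p = 0.0117), and Gm10184, at 512 and 427 against 232 and 261 CPM (0.93 ± 0.21, adjusted p = 0.0351), passed as well. Kpna2 itself read 20.3 and 13.3 CPM with IWR1 against 19.6 and 23.8 (-0.37 ± 0.30, adjusted p = 0.427).

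These calls were also lost with some libraries left out, in fits that leave 1 library in a group. The Hmga1 call was lost without KO library 2 (log2 difference 1.14 ± 0.28) or IWR1 library 1 (1.03 ± 0.20). The calls of Eno1 and Eno1b were lost without either KO library or IWR1 library 1. The log2 differences were then 0.80 ± 0.24 to 1.20 ± 0.34 for Eno1 and 1.03 ± 0.28 to 1.47 ± 0.36 for Eno1b. IWR1 library 1 lay above library 2 in all 9 genes except Ftl1, and it was the deepest library, with 52747273 counts against 34466708. Ftl1 read 427 and 449 CPM with IWR1 against 712 and 738, a difference of -0.73 ± 0.22 that did not pass (adjusted p = 0.071) although the groups did not overlap, and that passed by DESeq2 (adjusted p = 0.0135).

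Against control, which is not independent of the other day 10 comparisons because they share libraries, 3 of 9 genes rose with IWR1, beside 9.12% of all genes, 2.99% higher and 6.13% lower. These were Kpna2 (1.47 ± 0.31, adjusted p = 0.0387), Ahcy, at 24.2 and 13.7 against 7.37 and 5.93 CPM (1.51 ± 0.33, adjusted p = 0.0408), and Hmga1 (1.01 ± 0.20, adjusted p = 0.032) by edgeR. Each call was lost without either control library or IWR1 library 1, with adjusted p from 0.106 to 0.233. The sums of the Kpna2 family, at 594 and 459.7 against 269 and 271 CPM (0.97 ± 0.22, adjusted p = 0.0453), and the Hmga1 family, at 789 and 612 against 337 and 335 CPM (1.06 ± 0.23, adjusted p = 0.038), rose too and were lost without the same libraries, with adjusted p from 0.124 to 0.274. Of all rows of that fit 9.12% passed, 2.98% higher and 6.14% lower.

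By share, the IWR1 libraries lay above the untreated KO libraries without overlap in 6 of 7 families, where 28.6% of all genes lay above without overlap by level. The Kpna2 family read 96.6% and 97.1% with IWR1 and the Hmga1 family 73.3% and 73.1%. Against control the IWR1 shares lay below in 5 families and above in 1, Hmga1, and overlapped in the Eno1 family at 72.2% and 73.4%, where 33.5% and 33.6% of all genes lay below and above by level. The fibroblast genes read 26359.5 and 20535 CPM in the libraries labelled KO, 7725 and 8304 in control and 1249 and 3392 with IWR1. Of these genes Thy1 went the other way, at 1.72 and 1.75 CPM in KO, 3.29 and 4.05 in control and 5.82 and 6.31 with IWR1. The part of the fibroblast genes in the shares was not tested.

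Low copies behaved unevenly at day 10. The Ftl1 copy Gm12164, named after its values were seen, had a mean of 0.229 CPM over the libraries of days 3 and 5 and 11.9 CPM over those of day 10, in separately normalized tables. Gm10259, which carries both Kpna2 substitutions of Gm10184, was listed at 0 in all 8 libraries of days 3 and 5 and read 1.33 and 12.6 CPM in day 10 control, 3.93 and 0 in KO and 61.3 and 19.6 with IWR1. Libraries of the same group thus differed widely, and the difference of IWR1 against KO did not pass (4.35 ± 1.66 on the log2 scale, adjusted p = 0.122). The Eno1 copy Gm4735 had 0 counts in both day 10 control libraries and 0.485 and 0.683 CPM in KO, which is at least 15.7-fold higher against a floor of 3 counts over the control group, and passed by edgeR (adjusted p = 0.0378). With IWR1 it read 0.186 and 0.469 CPM, at least 8.8-fold higher than control on the same floor (adjusted p = 0.0451).

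Other genes of the same pathways were taken from lists that hold no member. Over all genes 32.9% passed in KO against control at day 3, 43.5% at day 5 and 5.27% at day 10. Higher in KO were 16%, 21.9% and 1.92% of all genes on these days. With IWR1 against KO 13.9% passed, 5.77% higher and 8.08% lower. No list was tested as a set. Among 9 other glycolysis genes, 3 were higher and 2 lower in KO at day 3, 7 higher and 2 lower at day 5, and 0 higher and 1 lower at day 10. Eno2, the neuronal enolase, read 18.6 ± 1.39 CPM (SD, n = 2) in KO against 4.58 ± 0.623 in control at day 3 (edgeR adjusted p = 1.36e-04), and Eno3, the muscle enolase, fell by 2.37 ± 0.40 on the log2 scale in the day 10 libraries labelled KO (adjusted p = 0.0266). With IWR1 against KO, 3 glycolysis genes rose and 1 fell, with Pkm, pyruvate kinase, at 1851 ± 227 against 819 ± 137 CPM (adjusted p = 0.0374) and Ldha, lactate dehydrogenase, at 1111 ± 326 against 401 ± 3.48 (adjusted p = 0.0375). The list median against KO was 0.88 on the log2 scale, beside -0.01 over all genes.

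Of the iron genes tested, 10 of 11 listed, 2 were higher and 4 lower in KO at day 3 and 2 higher and 3 lower at day 5. Over all genes 32.9% passed at day 3 and 43.5% at day 5. Hmox1, the haem oxygenase that frees iron, read 94.9 ± 1.21 against 40.5 ± 1.43 CPM at day 3 (adjusted p = 9.17e-06) and 98.8 ± 5.66 against 41.2 ± 4.98 at day 5 (adjusted p = 7.31e-06). Aco1, the iron-sensing aconitase, read 82.4 ± 4.72 against 124 ± 1 CPM at day 3 (adjusted p = 1.37e-04). At day 10 none passed between KO and control. Fth1, the ferritin heavy chain, read 1136 ± 234 against 665 ± 85.5 CPM (0.77 ± 0.28 on the log2 scale, adjusted p = 0.18), and with IWR1 against KO Slc40a1, the iron exporter ferroportin, fell by 1.82 ± 0.33 (adjusted p = 0.0211).

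Of 13 importin and Ran-cycle genes tested, 6 were higher and 0 lower in KO at day 3 and 8 higher and 0 lower at day 5, with a median of 0.14 on the log2 scale on each day. Between the days, 11 of 13 were lower at day 5 in control, beside 30.2% of all genes, and 10 of 13 in KO, beside 25.5%. With IWR1 against KO, Rcc1, the exchange factor of Ran, and Nutf2, which imports Ran, rose by 1.10 ± 0.20 and 1.05 ± 0.22 (adjusted p = 0.0205 and 0.0299). Of 10 methionine cycle genes tested at days 3 and 5, 0 were higher and 2 lower in KO at day 3, and 1 higher and 3 lower at day 5. In KO against control 16% of all genes were higher and 16.9% lower at day 3, and 21.9% and 21.7% at day 5.

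Of 21 HSP70 chaperones and helpers, 8 were higher and 4 lower in KO at day 3 and 9 higher and 2 lower at day 5, and none passed in the day 10 comparisons. Hspa5, the chaperone of the endoplasmic reticulum, read 807 ± 27.3 against 496 ± 8.12 CPM at day 3 (adjusted p = 4.70e-04). Of 8 other high mobility group genes, 3 were higher and 3 lower in KO at day 3. Hmgn2 read 427 ± 2.44 against 141 ± 1 CPM (adjusted p = 1.10e-08) and Hmga2, the closest relative of Hmga1, 63.8 ± 3.82 against 245 ± 3.25 (adjusted p = 1.73e-07), opposite in direction to Hmga1 itself. Of 10 other small ribosomal subunit genes, 2 were higher and 8 lower in KO at day 3. Over all genes 32.9% passed in KO against control at day 3 and 43.5% at day 5. Copies of these list genes were not looked for here.

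The genes nearest to a member were found by Euclidean distance between mean-centred log2(CPM + 1) values over the 8 libraries of days 3 and 5, among genes outside the families with a mean of at least 5 CPM. For the 3 copies, all 9 nearest places were held by processed pseudogenes, some of them in more than 1 place. The share of processed pseudogenes among the genes searched was not counted. Rps3a2 was nearest to Rpl3-ps1 (distance 0.37), which read 2185 and 2163 CPM in day 3 control and 15.3 and 9.38 in KO, Rps3a3 to Rpl34-ps1 (0.53) and Eno1b to Gm12191 (0.95). For the 6 parents, 1 of 18 places was held by a processed pseudogene, Gm10182, which was listed at 0 in the 4 control libraries and read 33.5 to 43.5 CPM in KO.

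Kpna2 was nearest to Vmn1r88 (distance 0.45), a vomeronasal receptor gene that read 1.06 and 1.14 CPM in day 3 control and 67 and 75.9 in KO. Vmn1r88 and Mx1, an interferon-induced GTPase gene, were also among the 3 nearest genes of Ahcy and Ftl1, although no gene came close to Ftl1 (smallest distance 3.77). Eno1, Hspa8 and Hmga1, whose lines differed less, had other neighbours, Eno1 the insulin-degrading enzyme Ide (0.26), at 74 and 77.6 CPM in day 3 control and 214 and 218 in KO, and Hspa8 the kinase gene Plk3 (0.23). These distances describe the 8 libraries that also served to choose the genes, and they carry no test.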

How the data were processed

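The deposited files are 2 tables of estimated counts per gene, a table of days 3 and 5 and a table of day 10, which the authors made with kallisto 0.46.2 on mm10, per the submitters' processing notes. They hold whole numbers, taken here as rounded expected counts. The sources used here give neither how transcripts were summed to genes nor how strand was used, so overlapping genes on opposite strands cannot be told apart, and counts of near-identical copies are uncertain. All 36047 identifiers matched GENCODE vM21 (mm10). Members and lists were chosen with earlier results of these data known.

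Each table was fitted with edgeR 4.0.16 (R 4.3.3): filterByExpr, TMM, robust quasi-likelihood F-test, two-sided, Benjamini-Hochberg adjustment over all genes tested, threshold 0.05. The fits held 14430 genes in 8 libraries and 17022 in 6, with 4 and 3 residual degrees of freedom and a common biological coefficient of variation of 0.0915 and 0.248. All 9 members passed the filter in both. CPM use TMM-scaled library sizes, and the SE of a log2 difference is its size over the square root of F. Because the tables were normalized separately, nothing was tested between them, and levels and shares set across them are side by side only.

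Copies came from blastn 2.17.0 of reference transcripts. Family sums replaced the rows of a family by their summed counts before a new fit. Named genes were the members, each parent with up to 4 copies of highest mean CPM over days 3 and 5, the list genes of smallest p and the 3 nearest profiles. Other genes of that rule are not printed. Alternatives were DESeq2 1.42.0, its size factors in edgeR, no filter, a replicate block, leaving out each library, and copies at 90% or 98% identity.

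Simulated counts with known changes were used to test the fit. At day 3 it recovered 36.8%, 64.8% and 88.5% of changes of 1.5, 2 and 4 times, with 11.3% of calls false, and at day 10 0%, 1.45% and 90.3%, with 3.39% false. Floors cover counting error only.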

Additional observations from a re-analysis of the deposited data

Results flagged for a closer look

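Of the main copies, 9 went opposite ways between days 3 and 5 in the lines, each library of day 5 being below both of day 3 in control and above both in KO. The difference between the lines was not tested. Rps3a3 was not among them, since its control libraries overlapped, at 117 and 104 CPM on day 3 and 107 and 119 on day 5. As log2 ratios of group means, day 5 over day 3, Gm10184 (Kpna2) changed by -0.31 in control and 3.72 in KO, Gm4737 (Ahcy) by -1.02 and 2.74, and Eno1b by -1.30 and 2.77. Of the Ftl1 copies, Ftl1-ps1 changed by -0.31 and 2.10, Ftl2-ps by -0.41 and 2.37 and Ftl1-ps2 by -0.26 and 2.68. Gm15459 (Hspa8) changed by -0.47 and 2.81, Hmga1b by -0.59 and 2.14 and Rps3a2 by -0.08 and 3.15. In control Ftl1-ps1, Ftl1-ps2 and Rps3a2 did not pass edgeR's test between the days (adjusted p = 0.0567, 0.181 and 0.671), and in KO all 9 copies did. The rise in KO starts from levels of 0.173 to 20.2 CPM, in libraries that also served to choose the genes. By separation of the libraries, 42.1% of all genes lay lower at day 5 in control and 39.8% higher in KO. The 9 copies share their libraries and are not separate tests.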

How the results depend on the processing

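Copies at 90% or 98% identity in place of 95% left the median share of copies in each group within the spread between its libraries, and the count of sums called unchanged in the 5 comparisons tested. Of 902 values of single genes and sums recomputed under an alternative, 13 changed sign, 59 lost and 31 gained a call, and 16 values given without a test moved by more than their SE. Genes called between KO and control at day 3 numbered 4741, 2994 by DESeq2 and 2520 to 2572 without 1 library, and at day 5 6281 and 4030 to 7565. Members called at day 10 in KO against control numbered 2, 1 under the replicate block and 0 to 1 without 1 library. In IWR1 against KO they numbered 3, 1 under the block, 6 under a crossed block and 0 to 3 without 1 library, and sums 3, 1, 5 and 0 to 4. In IWR1 against control members numbered 3, 0, 9 and 0 to 4, with 6 by DESeq2, and sums 2, 0, 6 and 0 to 3, with 4 by DESeq2. The replicate numbers did not pair the samples: deviations of same-numbered libraries correlated between -0.00795 and 0.0837 at days 3 and 5, and at day 10 at 0.452 for control and IWR1 but -0.569 and -0.548 with KO. The block also ended the calls between days of Ftl1 in KO (adjusted p = 0.0529) and of the Rps3a1 sum in control (adjusted p = 0.0547), by edgeR. The crossed block, which swaps the KO numbers, was chosen after seeing the data. The median share of copies in day 3 KO was 0.478%, and 0.449% to 0.55% without 1 library. Values near 0 changed sign. In KO against control at day 10 these were Rps3a2 (-0.11 to 0.67 without 1 library), Rps3a3 (-0.10 to 0.65) and the Rps3a1 sum (-0.06 to 0.68), each lowest without KO library 2, and the Kpna2 sum, 0.0025, at -0.02 with DESeq2 size factors and by DESeq2, -0.0026 under the crossed block, -0.0027 without control library 1 and -0.08 to 0.04 over all left-out libraries, lowest without KO library 2. In IWR1 against KO, Hspa8 (-0.0032 to 0.67) and Ahcy (-0.10 to 0.72) did, lowest without IWR1 library 1, in IWR1 against control the Ftl1 sum (-0.28 to 0.03), highest without control library 1, and in control between days Rps3a3 (-0.06 to 0.12), at -0.06 and -0.05 without day 3 or day 5 library 2. The cause of these changes was not tested. Precision at day 10 is limited by 2 libraries a group and a biological coefficient of variation of 0.248, although depth was higher than at days 3 and 5.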
